A study of Mus musculus with 10 samples.

Results

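Evf2 is a long non-coding RNA and Dlx6 is the homeobox gene that it is transcribed across. Both were followed here on 10 expression arrays of embryonic mouse brain. A deposited list of 96 changed probe sets served to find them: every probe set whose symbol was Evf2 or Dlx6 was taken. There was 1 for each gene, 1434280_at for Evf2 and 1452507_at for Dlx6, out of 45037 non-control probe sets on the array. A probe set is the group of short probes whose brightness is summarised as 1 value. Gene names came only from that list, so any further probe sets of either gene are unnamed here and were not described.

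The arrays measured total RNA from the medial ganglionic eminence (MGE), the part of the ventral forebrain where many cortical interneurons are born, at E13.5, in mid-gestation. Each sample was a pool of 4 eminences from 2 embryos on a mixed 129Sv, Bl6 and Fvbn background. There were 5 Evf2+/+ (wildtype) pools, of which 3 were female and 2 male. The 5 Evf2TS/TS (mutant) pools, 2 female and 3 male, were homozygous for an allele that does not express Evf2. TS stands for a transcription stop placed in the Evf2 gene, an allele present in every cell of the embryo. The pools are separate samples of dissected tissue, so p-values measure the spread between pools. In such bulk tissue, fewer cells of a type and less RNA per cell cannot be told apart.

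Dlx5 and Dlx6 form a pair of neighbouring homeobox genes that act in ventral forebrain progenitors and in the GABAergic interneurons they give rise to. Enhancers in the interval between them drive both genes. Evf2 is transcribed from this interval, antisense to Dlx6, and the RNA is known to bind DLX proteins and to act on the same enhancers. The comparison of mutant with wildtype shows how transcripts, those of the neighbour Dlx6 among them, differ with the stop allele. Loss of the RNA and loss of transcription across the locus come with the same allele and cannot be told apart here. The background was mixed, and whether strain DNA near the allele or elsewhere was alike in both genotypes was not tested.

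RefSeq lists Evf2 as a synonym of Dlx6os1, a gene with 3 transcripts on chromosome 6. Its RefSeq span encloses Dlx6, which has 1 transcript, and a second antisense gene, Dlx6os2. Dlx5 follows next in the order of starts. The deposited list aligned the Dlx6 probe set to the plus strand of chromosome 6, from 6813796 to 6817970, in a genome build that it does not name. It gave neither an alignment nor an Entrez number for the Evf2 probe set. Which part of the Evf2 transcript that probe set reads, and on which side of the inserted stop, is therefore not known here.

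RefSeq starts of Dlx6os1 transcripts are shown because Evf2, the RNA removed, is listed under that gene. The partners of Evf2, the DLX proteins, bind the homeodomain core TAATTA. Which of these starts belongs to Evf2, and where each lies relative to Dlx6, was not tested. RefSeq promoter windows of GRCm38.p6, each with 250 bases before and 50 after a transcript start, matched 1 of the 2 genes (Dlx6os1, with 2 windows). Both windows are on the minus strand and are printed 5′ to 3′ with TAATTA in capitals. The first lies at chr6:6869484-6869783 and the second at chr6:6861634-6861933.
Dlx6os1 window 1: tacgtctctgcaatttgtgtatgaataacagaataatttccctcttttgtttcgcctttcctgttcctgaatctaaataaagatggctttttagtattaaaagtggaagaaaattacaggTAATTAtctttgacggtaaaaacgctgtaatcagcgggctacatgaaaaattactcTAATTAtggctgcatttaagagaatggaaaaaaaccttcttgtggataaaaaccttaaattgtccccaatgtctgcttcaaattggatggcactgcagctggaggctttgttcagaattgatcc
Dlx6os1 window 2: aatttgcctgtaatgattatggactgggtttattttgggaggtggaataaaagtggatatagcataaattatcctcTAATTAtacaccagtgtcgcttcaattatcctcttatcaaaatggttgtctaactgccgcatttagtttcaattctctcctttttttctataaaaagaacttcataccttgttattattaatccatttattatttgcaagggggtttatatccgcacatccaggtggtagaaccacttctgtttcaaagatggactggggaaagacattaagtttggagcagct
TAATTA reads the same on both strands. It occurred at 2 places in window 1, 130 and 74 bases before the start, and at 1 place in window 2, 174 bases before it. Of 32851 RefSeq promoter windows of the same length, 5.29% held it, a share not matched for G and C content. Both windows were poor in G and C, at 35.7% and 35.3% against a median of 52.7% over all windows. The GC box GGGCGG, held by 35.7% of windows on either strand, was in neither. Window 2 held the TATA motif TATAAA at 2 places (13.6% of windows hold it), and window 1 held CCAAT at 2 places (37.4%). These are matches of letters, not measured binding sites.

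Median signals of the arrays ran from 23.6 to 29.3 array units. The deposited values already had nearly the same mean on every array, so likeness in brightness is no check of quality. Evf2TS/TS replicate 5 stood apart from the rest. It scored 61.7 on the first principal component (19.4% of variance), where the other mutant pools lay between 0.197 and 2.34. On it, 298 probe sets read less than any other array by over 2-fold, and no other array had more than 16 such probe sets. Its 3′ to 5′ ratio, which rises as RNA degrades, was the highest of the 10 for both control genes, 1.41 for actin (1.257 to 1.381 elsewhere) and 0.868 for Gapdh (0.822 to 0.862 elsewhere). Evf2+/+ replicate 3 scored -39.5 on the same component, where the other wildtype pools lay between -9.53 and -3.12. The genotype effects, exact tests, Dlx6 spread, differences of effects between the sexes and likeness are given with and without mutant replicate 5. Group means and the other results include it.

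The Evf2 probe set was bright in wildtype MGE. It read 453, 608 and 598 signal units in the female wildtype pools (replicates 1 to 3) and 901 and 483 in the male ones (replicates 4 and 5). On each wildtype array it was brighter than at least 88.7% of all probe sets. In mutant pools it read 58.1 and 12.3 in the females (replicates 1 and 2) and 15.3, 16.5 and 9.47 in the males (replicates 3 to 5). Every mutant pool lay far below every wildtype pool, the nearest pair being 7.80-fold apart.

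Evf2TS/TS replicate 1 held more Evf2 signal than the other mutant pools. Its reading was 9.55% of the wildtype mean and brighter than 62.2% of the probe sets on its array. In the other mutant pools it was brighter than 31.0% to 39.4% of probe sets, which puts it under the median of the array. A reading there does not show that any Evf2 RNA was left, since no detection call per probe set was used here.

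Over the groups, Evf2 fell from 609 ± 177 to 22.4 ± 20.2 signal units (SD, n = 5 each), and the mutant mean was 3.67% of the wildtype mean (2.20% without mutant replicate 1). On the log2(signal + 16) scale the difference was -4.07 ± 0.28 (SE, with a 95% interval from -4.69 to -3.45; limma with genotype and sex, adjusted p = 0.00011). It was the biggest fall of all 45037 probe sets on that scale. Of all probe sets, 0.233% were called lower in the mutant and 1.24% were lower without overlap between the groups. Without mutant replicate 5 the difference was -3.98 ± 0.30 (adjusted p = 0.00074), and without replicate 1, the pool with the highest Evf2 reading, -4.44 ± 0.19 (adjusted p = 1.67e-05). The size rests on how dim signals are treated: it was -2.95 with 64 added in place of 16 and -4.90 with 1 added. The authors' deposited table gave a log2 change of -4.89 and levels of 937 and 31.4, from another summary of the arrays.

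**Figure D1:**
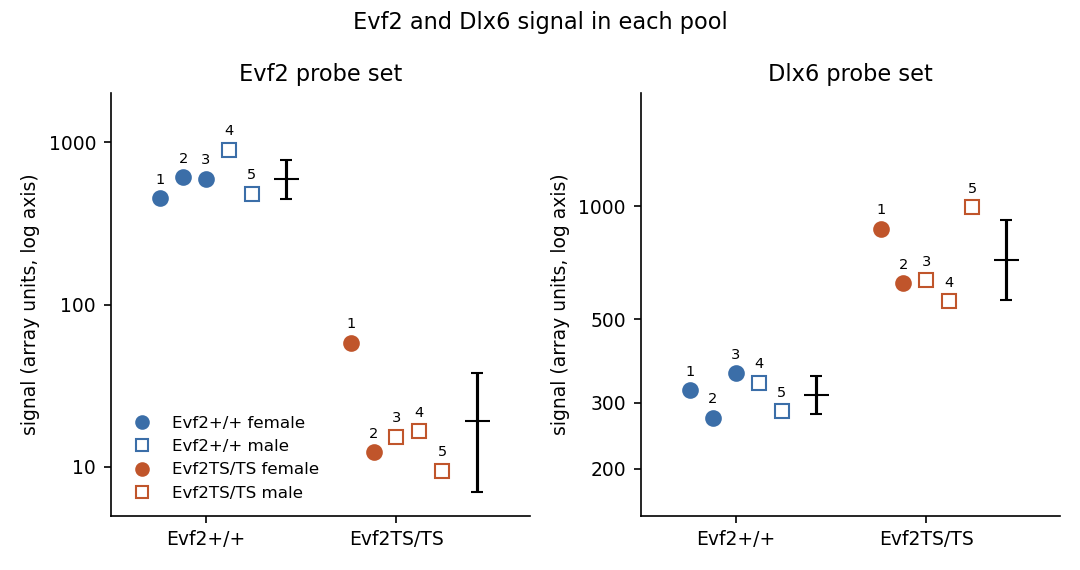
Signal of the Evf2 and Dlx6 probe sets (array units, log axes that differ between panels) in each pool, numbered by replicate; filled circles are female and open squares male pools, and the black bars are the mean ± SD of log2(signal + 16) turned back to signal. Evf2 lies between 453 and 901 in wildtype and between 9.47 and 58.1 in mutant pools, and Dlx6 between 273 and 360 in wildtype and between 558 and 994 in mutant pools.

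Dlx6 went the other way. In female wildtype pools (replicates 1 to 3) it read 324, 273 and 360 signal units, and in male ones (replicates 4 and 5) 339 and 285. In mutant pools it read 871 and 625 in females (replicates 1 and 2) and 636, 558 and 994 in males (replicates 3 to 5). The groups did not overlap, the lowest mutant pool being 1.55-fold above the highest wildtype pool. The rank on the array moved with the signal: Dlx6 was brighter than 83.2% to 86.3% of probe sets in wildtype and than 90.7% to 94.9% in mutant pools, a measure that does not depend on how an array was scaled.

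From 316 ± 36.4 in wildtype, Dlx6 rose to 737 ± 186 in mutant MGE (SD, n = 5 each), which is 2.33 times the wildtype mean. The log2 difference was 1.16 ± 0.17 (95% interval 0.80 to 1.53; limma, adjusted p = 0.0118). It was the 48th largest rise of all probe sets and the 35th of the 136 called rises. Of all probe sets, 0.302% were called higher in the mutant and 1.83% were higher without overlap. Without mutant replicate 5, where Dlx6 was highest, the difference was 1.05 ± 0.13 (adjusted p = 0.0136). The call ended without Evf2+/+ replicate 5 (adjusted p = 0.0548) or Evf2TS/TS replicate 1 (adjusted p = 0.0637), at differences of 1.12 and 1.07. It also ended with a pseudocount of 1 (adjusted p = 0.0729). The authors' deposited table gave a log2 change of 1.15 and levels of 622 and 1394.

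The naming list holds only probe sets the authors found changed on these same arrays, at least 2-fold and past a corrected p of 0.05. That Evf2 and Dlx6 were both called here is nearly fixed by this choice. In all, 241 of 45037 probe sets (0.535%) were called, 136 higher and 105 lower. With each array centred on its median the split was 95 higher and 148 lower, but Evf2 stayed lower (-4.14 ± 0.27) and Dlx6 higher (1.09 ± 0.17). Groups were apart in 3.07% of all probe sets. An exact permutation test over the pools, 2-sided and with no sex term, gave p = 0.00794 for Evf2 and for Dlx6 (also after adjustment over the 2 tests). This is the smallest p that 5 pools against 5 can give. Every probe set without overlap between the groups gets it, and both were listed by this same contrast, so it adds no support. Without mutant replicate 5 both exact permutation tests gave p = 0.0159, again the smallest possible.

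**Figure D2:**
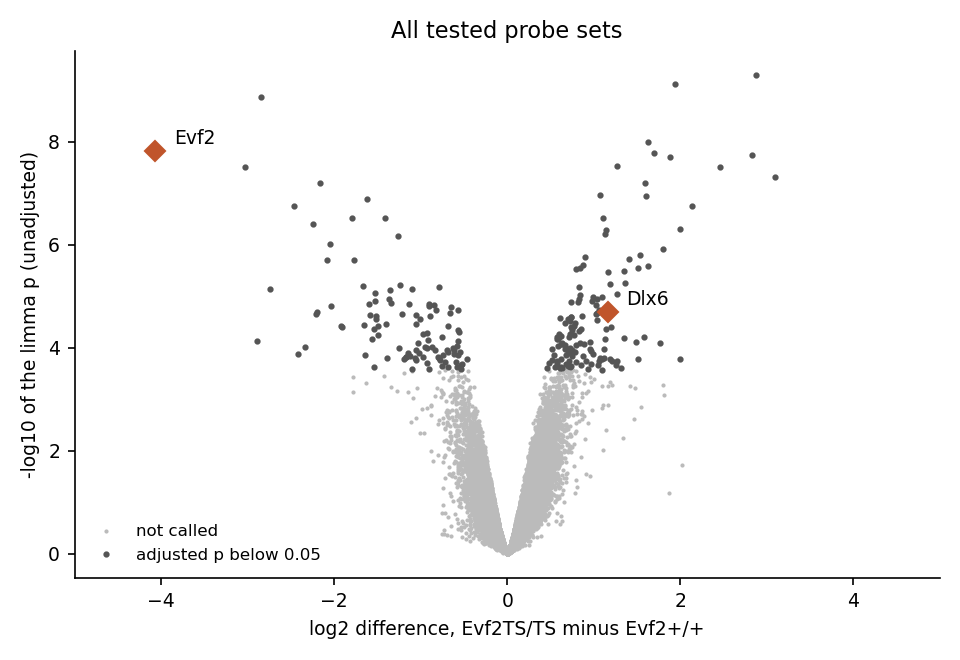
Each of the 45037 tested probe sets by its log2 difference, mutant minus wildtype (x axis), and by -log10 of the unadjusted limma p (y axis); dark points have an adjusted p under 0.05 and diamonds mark Evf2 and Dlx6. Evf2 is the point farthest to the left, at -4.07, and Dlx6 lies among the called rises at 1.16.

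The spread among pools of a genotype was set beside that of probe sets of like level, and for Evf2 it rested largely on 1 pool in each genotype. In wildtype Dlx6 varied by an SD of 0.16 log2 units, near the median of 0.14 among probe sets within 2-fold of its level (61.5% varied less). In mutant pools its SD was 0.35 against a median of 0.14, and 93.5% of probe sets of like level varied less (0.27, and 97.0%, without replicate 5). For Evf2 the SD was 0.38 in wildtype, where 98.3% of probe sets of like level varied less, and 0.62 in mutant pools, where 98.9% did. Without wildtype replicate 4 it was 0.21 (83.5%), and without mutant replicate 1 it was 0.16 (17.1%), less than the median of 0.27. The highest wildtype Evf2 reading was 1.99 times the lowest, while that ratio was 1.32 for Dlx6. These are descriptions of 5 pools a group, without a test of unequal spread.

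Levels by sex had the same order of genotypes in females and males. For Evf2, male wildtype pools were highest at 692 ± 295 (SD, n = 2), followed by female wildtype at 553 ± 86.7 (n = 3), female mutant at 35.2 ± 32.4 (n = 2) and male mutant pools at 13.8 ± 3.78 (n = 3). Within a genotype the ranges of the sexes overlapped. For Dlx6 the order was female mutant (748 ± 174), male mutant (730 ± 232), female wildtype (319 ± 43.5) and male wildtype (312 ± 38.2), with the same numbers of pools, and the ranges of the sexes overlapped again.

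The genotype effect on Evf2 was -3.62 ± 0.37 in females (limma, adjusted p = 0.0132) and -4.51 ± 0.37 in males (adjusted p = 0.00278). The male effect minus the female effect was -0.89 ± 0.53 (95% interval -2.06 to 0.28, adjusted p = 0.999), and it ran from -1.59 without mutant replicate 2 to -0.20 without mutant replicate 1. Dlx6 differed between genotypes by 1.18 ± 0.25 in females and 1.15 ± 0.25 in males, but with 2 or 3 pools a group it was called in neither (limma, adjusted p = 0.197 and 0.267). The background share was 0.0688% of probe sets called in females and 0.0622% in males. The effects on Dlx6 differed by -0.03 ± 0.35, with an interval from -0.80 to 0.74, which as a ratio of effects runs from 0.573 to 1.67. Without mutant replicate 5 the effects in males and females differed by -0.78 ± 0.58 for Evf2 and -0.27 ± 0.27 for Dlx6 (limma, adjusted p = 0.998 for both). With all 10 pools, limma called the difference of effects at 0 of 45037 probe sets (0%). At an unadjusted limma p under 0.05 there were 1744 (3.87%), and neither Evf2 nor Dlx6 was among them. The male minus female coefficient across genotypes was -0.18 ± 0.28 for Evf2 and -0.04 ± 0.17 for Dlx6 (adjusted p = 0.977 and 0.993), where 0.0266% of probe sets were called.

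Within a genotype, the level of Dlx6 was set beside the level of Evf2 pool by pool. Among mutant pools, the Evf2 readings of replicates 2 to 5 (12.3, 15.3, 16.5 and 9.47) were under the array median and have no order as levels of remaining Evf2. Their Dlx6 readings were 625, 636, 558 and 994. Replicate 1, the one mutant pool whose Evf2 reading (58.1) was above the array median, read 871 for Dlx6, within the range of the other mutant pools and 2.42-fold above the highest wildtype pool. The mutant pools therefore allow only the comparison of this pool with the others, and no trend of Dlx6 along remaining Evf2 can be read from them. Replicate 5 was also the pool with the highest 3′ to 5′ ratios, whose part in its Dlx6 level was not tested.

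In wildtype pools from the highest Evf2 to the lowest (replicates 4, 2, 3, 5 and 1, from 901 to 453), Dlx6 read 339, 273, 360, 285 and 324. The highest and the lowest Evf2 pools differed 1.99-fold in Evf2 and read 339 and 324 for Dlx6. The highest Dlx6 level was in the pool with the middle Evf2 level. With 5 pools per genotype no correlation was computed, since a minimum of 6 was set, and a pooled one over the 10 would only restate the gap between genotypes. The wildtype pool with the highest Evf2 was male and the one with the lowest was female. Mutant replicate 1 was female.

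**Figure D3:**
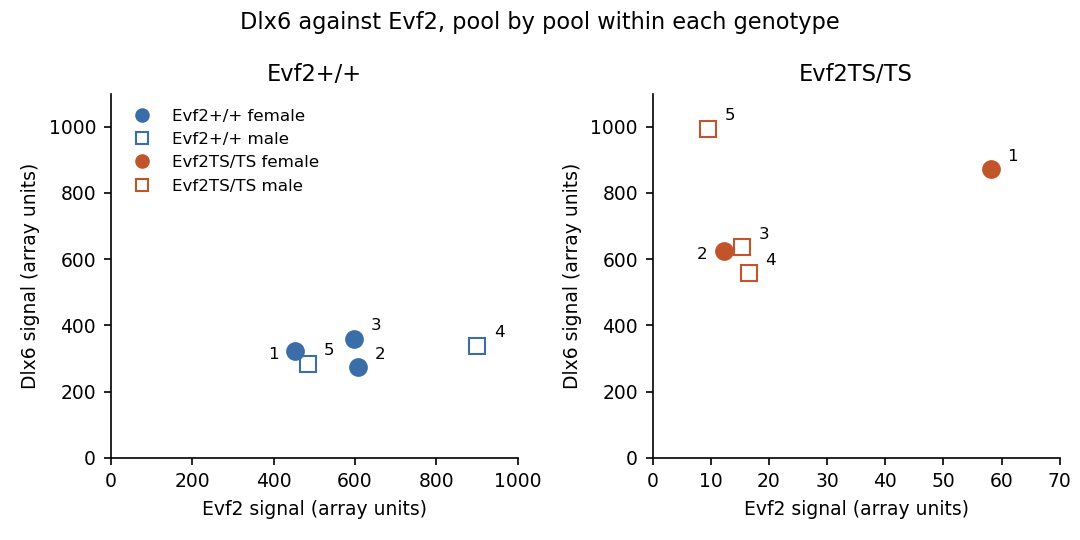
Dlx6 signal (y axis) against Evf2 signal (x axis, whose range differs between panels), both in array units, for the 5 wildtype pools (left) and the 5 mutant pools (right), numbered by replicate. In wildtype the Dlx6 level stays between 273 and 360 while Evf2 runs from 453 to 901, and mutant replicate 1, with Evf2 at 58.1, lies at 871 within the Dlx6 range of the other mutant pools, 558 to 994, whose Evf2 readings under the array median have no order.

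The genes most like each of them in pattern were taken from 56 other singly named genes of the deposited list. Each pool was placed on a scale with 0 at the wildtype mean and 1 at the mutant mean of log2(signal + 16), and likeness was the mean absolute difference of these positions over the 10 pools. Since every listed gene differs between genotypes, likeness mostly reflects the spread within them. Genes that fell can be like genes that rose. For Evf2, the positions of mutant replicates 2 to 5 come from readings under the array median, so differences among them have no meaning as levels.

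Dlx6 had positions of 1.23, 0.83, 0.85, 0.69 and 1.40 in mutant replicates 1 to 5, so replicates 1 and 5 lay beyond the mutant mean and replicate 4 nearest to wildtype. The closest gene was Nmnat1, an enzyme of NAD synthesis encoded on chromosome 4, at a mean difference of 0.112 (the median over the 56 genes was 0.207). Nmnat1 read 23.3 ± 4.36 in wildtype pools (SD, n = 5) and 70.2 ± 24.3 in mutant ones (n = 5), and its positions in mutant replicates 1, 4 and 5 were 1.30, 0.39 and 1.41. Next was C1qtnf12, a secreted C1q/TNF-related protein also encoded on chromosome 4 (0.117, lower in the mutant). Mtrex, the helicase of the nuclear exosome (0.132, higher), and Acaa2, a mitochondrial thiolase (0.133, higher), followed. All of these were called, with log2 differences of 1.12 ± 0.19, -1.24 ± 0.15, 2.83 ± 0.20 and 1.62 ± 0.11 in that order (limma, adjusted p of 0.0300 or less). The wildtype means of Nmnat1 (23.3) and Mtrex (1.99) were under the lowest array median (23.6). The sizes of their rises are therefore open to the pseudocount, and differences among their wildtype positions have little meaning as levels.

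For Evf2, with positions of 0.74 in mutant replicate 1 and 1.03 to 1.11 in the others, the closest was the transcript AA388235 at 0.0679 (median 0.190). AA388235 fell from 173 ± 34.8 to 10.3 ± 4.47. It was followed by Akr1b8, an aldo-keto reductase encoded on the same chromosome as Evf2 (0.0902, higher in the mutant). Next were Vps52, a vesicle-tethering subunit (0.104, lower), and Ssu72, a phosphatase of RNA polymerase encoded on chromosome 4 (0.111, higher). The log2 differences of these 4 genes, from AA388235 to Ssu72, were -2.84 ± 0.16, 1.94 ± 0.10, -1.62 ± 0.14 and 1.41 ± 0.16 (limma, adjusted p of 0.00268 or less). Of these, Ssu72 alone was also nearer to wildtype in replicate 1, at a position of 0.73, while the other 3 lay between 0.965 and 1 there. The wildtype means of Akr1b8 (10.7) and Ssu72 (9.25) and the mutant mean of AA388235 (10.3) were under the lowest array median (23.6). The sizes of these 3 changes are therefore open to the pseudocount, and differences among those dim positions have little meaning as levels.

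Evf2 and Dlx6 were not close to each other by this measure. Their mean difference of position was 0.235, and 38 of the 56 other genes were closer to Dlx6 than Evf2 was (0.231 and 39 without mutant replicate 5). Without that pool, 2 of the 4 genes nearest to Dlx6 were still among its nearest 4 (Mtrex and Acaa2, with Rwdd3 now first), and 3 of the 4 nearest to Evf2 (AA388235, Akr1b8 and Vps52). Beyond the Dlx pair, of 5 further chromosome 6 genes followed in published work on these samples, 3 were singly named. Akr1b8 and Rbm28 were higher and Lsm8 lower in the mutant, all called, which the naming list again nearly fixes.

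No other member of the pathway could be read. Of 15 genes of the Dlx family, GABA synthesis and their regulators (Dlx1, Dlx2, Dlx5, Gad1 and Gad2 among them), 0 had a named probe set. The same was true of 8 markers of the MGE, such as Nkx2-1 and Lhx6, of 10 markers of other eminences and the pallium, and of 6 chromatin or transcription factors listed as partners of Evf2. The labelled tissue was therefore not checked against its markers, and whether Dlx5 moved with Dlx6 was not tested. An absent name says nothing on whether a gene changed by less than the 2-fold limit of the list. Nor does it exclude a larger change that missed the list's corrected p limit of 0.05 or sits among its unnamed probe sets.

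**Figure D4:**
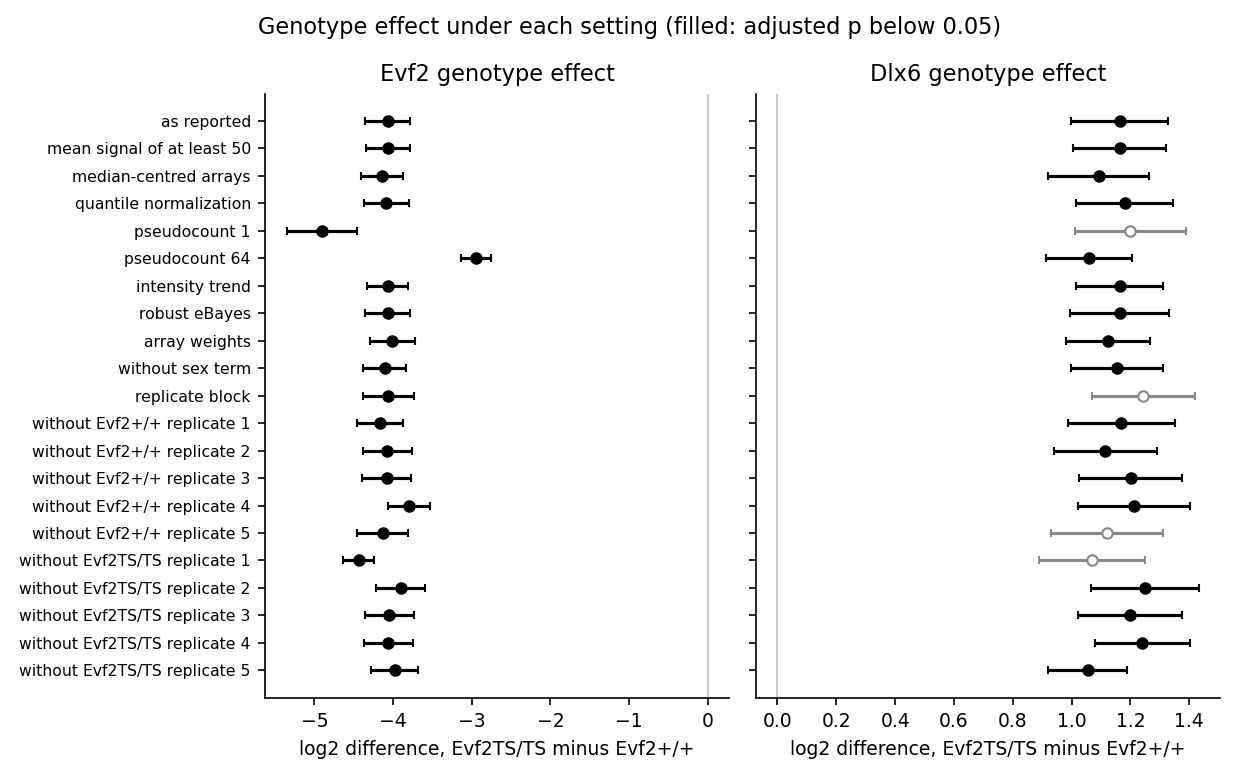
Log2 difference, mutant minus wildtype (x axis, ± SE), of Evf2 (left) and Dlx6 (right) as reported and under each other setting of the fit; filled points have an adjusted p under 0.05. Evf2 runs from -4.90 to -2.95 and is called in all, and Dlx6 runs from 1.05 to 1.25 and loses its call in 4 of 20 settings.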

How the data were processed

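Total RNA of 10 MGE pools was hybridised as biotin-labelled cRNA, per the labels, to the Affymetrix Mouse430_2 array, per the file headers. The deposited value table holds 1 linear intensity (called signal here) for each of 45101 probe sets, 64 of them controls. Tested on the values, every array had nearly the same mean after 2% at each end were set aside (148.98 to 149.27). The sources used here do not name the software that made these values. A second table, by the authors, lists probe sets past a corrected p of 0.05 and a 2-fold limit, per the file headers. For each, the authors deposited a linear ratio between genotypes, its log2 value and 1 intensity per genotype.

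Signals were tested as log2(value + 16), which understates changes of dim probe sets, with limma 3.58.1 (R 4.3.3): genotype and sex as terms, eBayes, 2-sided tests, with Benjamini-Hochberg adjustment across the 45037 probe sets and calls under 0.05. Effects by sex came from 1 mean per genotype and sex. Exact permutation tests used scipy 1.17.1. The fit was tested on simulated data. The number of arrays limits the precision.

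Named genes were both members and, for each, the 4 singly named listed genes nearest in pattern, the brightest probe set standing for a gene. Entrez numbers gave the current RefSeq symbols (GRCm38.p6), leaving 64 of 96 probe sets with 1 symbol. The members, lists and tests were chosen with earlier results of these data known. One gene of the Dlx and GABA list is not reported here. Alternatives varied the pseudocount, scaling, filter, covariates, weights and variance model, or omitted 1 pool. The spreads, percentages, exact tests and likeness without a pool were added after seeing the data.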

Additional observations from a re-analysis of the deposited data

Results flagged for a closer look

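In 20 groups of 5 pools, made up of Evf2, Dlx6 and the 8 genes most like them in each genotype, 1 had a pool well away from the remaining 4; by chance about 1 group in 20 would. It was the Evf2 reading of 58.1 in Evf2TS/TS replicate 1, the remaining mutant pools lying between 9.47 and 16.5. The gap to the next pool was 0.855 of the range of the group, past the limit of 0.71 for 5 values. Dlx6 in that pool read 871, inside the range of the other mutant pools.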

How the results depend on the processing

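Evf2 was lower and called in all 20 alternatives, at log2 differences from -4.90 to -2.95 (-4.44 to -3.80 when 1 pool was left out). Dlx6 was higher in all 20 and called in 16. Its call ended with a pseudocount of 1 (1.20, adjusted p = 0.0729), with the replicate block (1.24, adjusted p = 0.101) and in 2 of the 10 fits that left out a pool, which ranged from 1.05 to 1.25. The replicate numbers of the labels did not pair the pools: deviations of same-numbered pools correlated with r of 0.006 to 0.0404 across probe sets, and 2 of 10 pools were closest to their own number. The difference of either effect between the sexes was called in none of 18 alternatives. The count of called probe sets, 241 as reported, was 55 with a pseudocount of 1, 375 with array weights, 39 with the replicate block and between 72 and 259 without 1 pool. It fell over 1.5 times when wildtype replicate 2 (133), 4 (96) or 5 (108) was left out, or mutant replicate 1 (72), 2 (141) or 3 (140). The causes were not tested. Signals under the array median, such as Evf2 in mutant replicates 2 to 5, leave the size of a fall open to the pseudocount.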
